A study of Homo sapiens with 6 samples.

Results

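The genes described here are 10 members of the BCL2 family, picked by symbol from the deposited count files: BCL2, BCL2L1, MCL1, BCL2A1, BAX, BAK1, BBC3, PMAIP1, BID and BCL2L11. All 10 were found, each as 1 row among 58395 genes. The cells were THP-1, an established human monocytic leukaemia line, and their RNA was sequenced. The untreated group had 3 libraries labelled as having no exposure, with no vehicle named. The monensin group had 3 libraries from cells kept for 16 h with 1 µM of the drug, an ionophore that exchanges sodium for protons across membranes. Each library held between 22975888 and 25710513 gene counts. Nothing in the labels ties the libraries of a group to separate cultures, so p-values measure the spread between these libraries, which may be technical. Less RNA per cell and fewer cells of a kind cannot be told apart in such bulk samples.

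BCL2 family proteins set whether the outer mitochondrial membrane stays sealed. BCL2, BCL-XL (from BCL2L1), MCL1 and BFL-1 (from BCL2A1) keep it closed, and BAX and BAK (from BAK1) form the pores that let cytochrome c out. The BH3-only proteins PUMA (from BBC3), NOXA (from PMAIP1), BID and BIM (from BCL2L11) carry stress signals by binding the survival proteins or by activating BAX and BAK. Acute myeloid leukaemia cells commonly depend on BCL2 or MCL1, and BFL-1 is a survival protein of white blood cells.

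After monensin, MCL1 and BCL2 fell to 0.732 and 0.737 of their untreated levels, while the scarce survival gene BCL2A1 rose 11.6-fold and the BH3-only gene BBC3 rose 2.83-fold. PMAIP1 rose 1.23-fold and BID fell to 0.819 of its untreated level. BAX, BAK1 and BCL2L1 were 1.12-fold, 1.11-fold and 1.11-fold higher, and these calls depended on the processing. BCL2L11 was not called. By edgeR's quasi-likelihood test, with a call at an adjusted p under 0.05, 6 of the 10 members were raised and 3 were lowered, beside 34.1% of all 16542 tested genes raised, 33.7% lowered and 67.8% called either way. Only BCL2A1 and BBC3 rose at least 2-fold, as did 9.41% of tested genes, and no member fell by as much, as 3.83% did. In 5 members all monensin libraries were higher than all untreated ones and in 3 lower, beside 35.9% and 35.2% of tested genes. All 10 passed the filter on low counts, BCL2A1 only through its monensin libraries. Leaving untreated library 2 out gave 3 raised members. When trends of the fold change with GC content and transcript length were taken out (the GC and length adjustment), 4 were raised and 5 lowered. That setting called 4860 of 16523 genes raised and 6447 lowered, and shifted the median log2 fold change of all genes by -0.09.

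**Figure D1:**
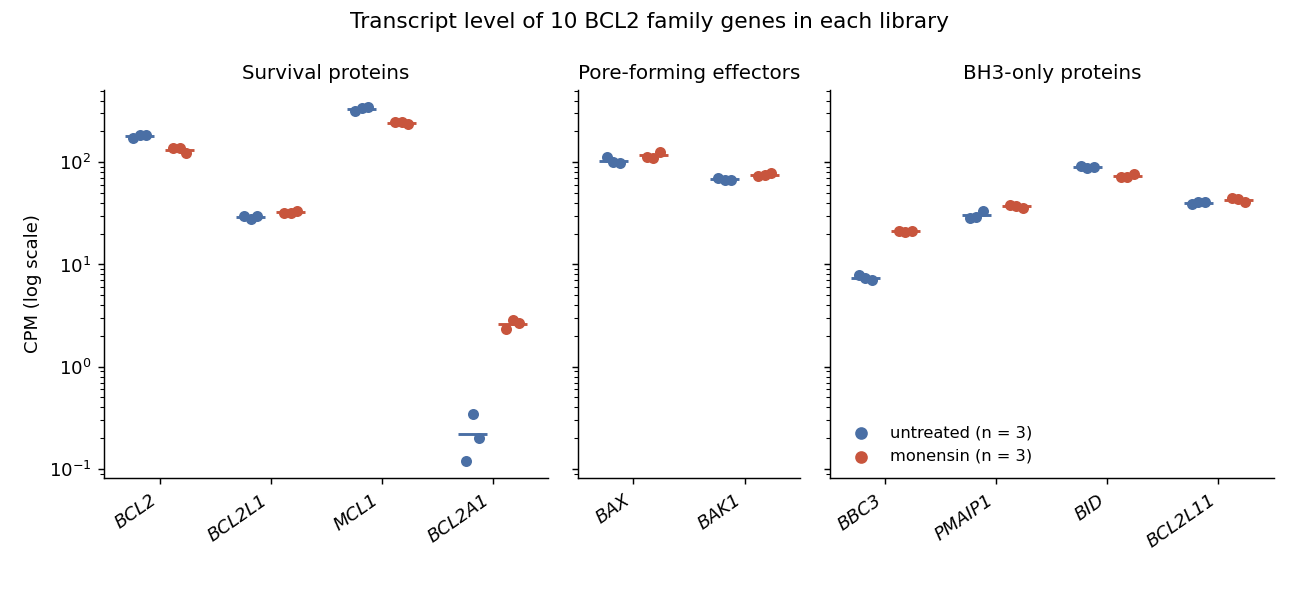
Transcript level of each member in every library, in CPM (read counts scaled to library depth) on a log axis, with untreated libraries in blue, monensin libraries in red and a bar at each mean of 3. BCL2A1 and BBC3 show the widest gaps between groups, and MCL1 is the most abundant member in both.

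MCL1, a short-lived survival protein, lies on chromosome 1 from 150574551 to 150579738 (GRCh38, minus strand). Untreated libraries had 315, 337 and 344 CPM of MCL1, and those with monensin had 249, 246 and 236 CPM. The groups did not overlap, as was true of 71.1% of all tested genes. MCL1 fell by 0.45 on the log2 scale (SE 0.04, edgeR adjusted p = 2.15e-07). BCL2, the founding member, lies on chromosome 18 from 63123346 to 63320128 (minus strand). Its level was 171, 185 and 186 CPM without monensin and 139, 137 and 124 CPM with it. Each monensin library was below each untreated one, and the decrease was 0.44 on the log2 scale (SE 0.05, edgeR adjusted p = 1.71e-06). Of all tested genes, 18.6% had a lower log2 fold change than MCL1 and 19.1% a lower one than BCL2.

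BCL2A1, on chromosome 15 from 79960889 to 79971446 (minus strand), had 3, 8 and 5 counts without monensin and 60, 71 and 62 counts with it. It was near the limit of detection in every untreated library and clearly counted in every monensin library. On the CPM scale it went from 0.222 ± 0.113 to 2.61 ± 0.254 (mean ± SD, n = 3 per group), and its log2 fold change was 3.54 (SE 0.28, edgeR adjusted p = 2.35e-08). The ratio of its summed counts, 193 against 16, was 11.9 after scaling to depth, with an exact 95% interval from 7.14 to 21.2 that covers counting error only. Because its monensin libraries alone took BCL2A1 past the filter, the fit with no filter bears on it. The log2 fold change of BCL2A1 there was 3.52 (SE 0.29, edgeR adjusted p = 2.49e-32). That fit gave far smaller p-values to BBC3 and MCL1 as well (edgeR adjusted p = 9.66e-64 and 1.75e-24). The smaller p is therefore not stronger evidence. Over all settings the adjusted p of BCL2A1 ran up to 1.15e-06. BCL2A1 was still the least abundant member after treatment. The authors' deposited table gives it a log2 fold change of 3.55.

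BCL2L1, which encodes BCL-XL, had 29.9, 27.7 and 29.6 CPM without monensin and 32.0, 31.9 and 33.1 CPM with it. The groups did not overlap, but the gap between them was small. Its log2 fold change was 0.15 (SE 0.06, edgeR adjusted p = 0.0246). The call did not survive leaving out untreated library 2, monensin library 2 or monensin library 3, which gave adjusted p-values of 0.154, 0.0565 and 0.0539. DESeq2 gave 0.0837, and the GC and length adjustment turned BCL2L1 to a log2 fold change of -0.11 at an adjusted p of 0.0593. Over all settings the adjusted p of BCL2L1 ran from 0.00165 to 0.154. The antisense gene ABALON covers 43.0% of the exon bases of BCL2L1. It had between 0 and 6 counts per library, and no source used here says whether reads were counted by strand.

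The pore-forming effectors were close to their untreated levels. BAX had 112, 99.9 and 99.0 CPM in untreated libraries and 113, 111 and 125 CPM in monensin libraries, so the groups overlapped. Its log2 fold change was 0.17 (SE 0.06, edgeR adjusted p = 0.0173). BAX lost its call when untreated library 2, untreated library 3 or monensin library 3 was left out, at adjusted p-values of 0.0922, 0.105 and 0.0780. After the GC and length adjustment BAX was called lower, at a log2 fold change of -0.13 and an adjusted p of 0.00967. Its adjusted p ran from 0.000938 to 0.105 over all settings.

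BAK1 had 69.9, 66.9 and 67.6 CPM without monensin and 73.6, 75.0 and 78.2 CPM with it. These groups did not overlap, and the log2 fold change was 0.15 (SE 0.05, edgeR adjusted p = 0.0108). Leaving out untreated library 2 ended the call, at an adjusted p of 0.0665, and the GC and length adjustment made BAK1 lower, at -0.16 and an adjusted p of 0.00122. For BAK1 the adjusted p ran from 0.000359 to 0.0665 over all settings. The longest transcripts of BAX, BAK1 and BCL2L1 have 58.9%, 58.8% and 56.9% G and C, against a median of 48.3% over tested genes. The adjustment takes out GC and length trends together, and which of them turned these 3 small differences was not tested. The pseudogene BAK1P1 had between 65 and 87 counts per library, which makes the count of BAK1 slightly uncertain.

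**Figure D2:**
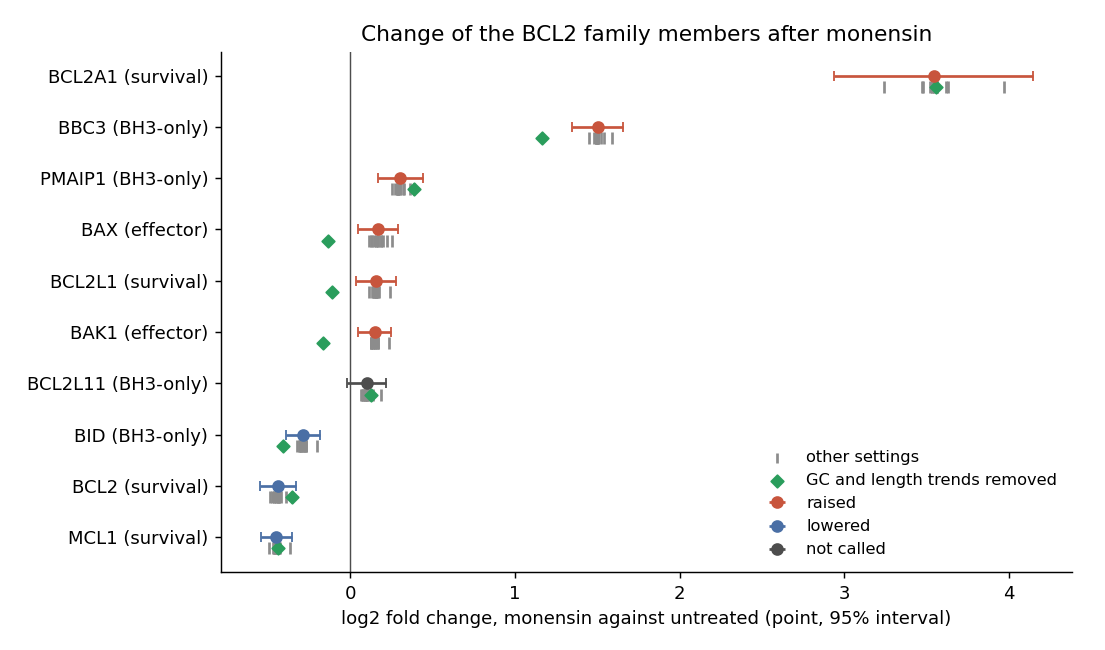
Log2 fold change of each member, monensin against untreated, with its 95% interval (points, red raised, blue lowered, grey not called), and beneath it the value under each other setting (grey ticks) and after the GC and length adjustment (green diamonds). BAX, BAK1 and BCL2L1 cross 0 under the last of these, whereas BCL2A1, BBC3, PMAIP1, BID, BCL2 and MCL1 stay on their side of 0 in all 14 settings.

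BBC3, which encodes PUMA, lies on chromosome 19 from 47220822 to 47232766 (minus strand). Without monensin BBC3 had 7.90, 7.42 and 7.04 CPM, and with it 21.3, 21.0 and 21.2 CPM. The lowest monensin library stood far above the highest untreated one, and the 3 monensin libraries were nearly equal. BBC3 rose by 1.50 on the log2 scale (SE 0.07, edgeR adjusted p = 7.81e-11), and 96.0% of tested genes had a lower log2 fold change. Its longest transcript has 69.7% G and C. After the GC and length adjustment the rise of BBC3 was 1.17, at an adjusted p of 1.29e-10, and over all settings its adjusted p ran from 9.66e-64 to 6.15e-09. The authors' deposited table gives BBC3 a log2 fold change of 1.48, and BBC3 and BCL2A1 are the only members in that table, whose smallest absolute log2 fold change is 1.00.

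PMAIP1, which encodes NOXA, a protein that binds MCL1, had 28.5, 29.4 and 33.2 CPM without monensin and 38.5, 37.8 and 36.0 CPM with it. All monensin libraries were above all untreated ones, and the rise was 0.30 on the log2 scale (SE 0.06, edgeR adjusted p = 0.000628). BID, which links death receptors to mitochondria once caspase-8 has cut it, had 92.1, 88.9 and 89.1 CPM in untreated libraries and 71.5, 72.3 and 77.4 CPM in monensin libraries. The groups did not overlap, and BID fell by 0.29 on the log2 scale (SE 0.05, edgeR adjusted p = 6.56e-05).

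BCL2L11, which encodes BIM, had 38.9, 40.6 and 41.3 CPM without monensin and 45.0, 43.5 and 40.7 CPM with it. The groups overlapped, and the log2 fold change was 0.10, with a 95% interval from -0.02 to 0.22 (edgeR adjusted p = 0.126). BCL2L11 was called higher in 3 settings: scaling to total counts, the GC and length adjustment, and leaving out monensin library 3. These gave adjusted p-values of 0.0106, 0.0250 and 0.0361, and that of BCL2L11 ran up to 0.383 over all settings. The antisense gene MIR4435-2HG covers 10.9% of the exon bases of BCL2L11 and had between 207 and 241 counts per library.

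Levels of different genes were compared per kilobase (kb) of exon. The length used joins all annotated exons of a gene, 2587 bases for BAX, 4371 for MCL1 and 11765 for BCL2. Where the cells express a shorter transcript, the level per kb is too low. The order, shares and ratio sizes below rest on this choice. In untreated cells MCL1 led with 76.0 ± 3.54 CPM per kb, followed by BAX at 40.1 ± 2.79, BAK1 at 30.8 ± 0.711 and BID at 20.2 ± 0.405 CPM per kb (mean ± SD, n = 3). BCL2 at 15.4 ± 0.707 and PMAIP1 at 13.6 ± 1.12 CPM per kb had overlapping libraries, and no other neighbours in the untreated order did. BCL2L1 stood at 8.76 ± 0.362, BCL2L11 at 6.04 ± 0.187, BBC3 at 2.34 ± 0.135 and BCL2A1 at 0.204 ± 0.103 CPM per kb. In monensin cells MCL1 was still first, at 55.6 ± 1.56 CPM per kb, and BAX second, at 45.0 ± 2.96. PMAIP1 at 16.7 ± 0.576 and BID at 16.6 ± 0.722 CPM per kb could no longer be ordered, and neither could BBC3 at 6.64 ± 0.050 and BCL2L11 at 6.47 ± 0.327.

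**Figure D3:**
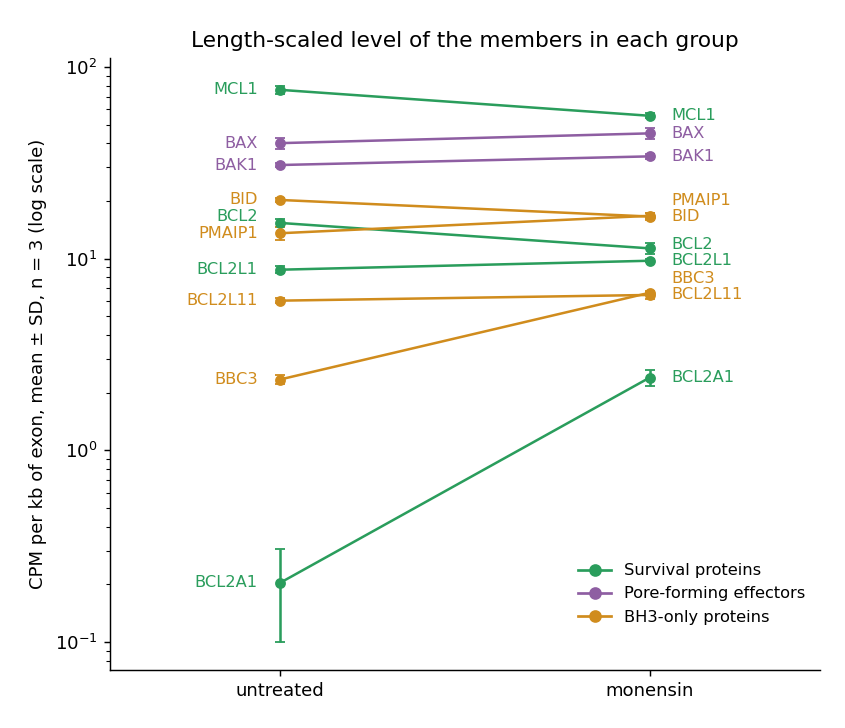
Level of each member per kb of exon in the untreated and monensin groups (mean ± SD, n = 3, log axis), coloured by role. BBC3 reaches the level of BCL2L11, PMAIP1 that of BID, and MCL1 and BAX stay in the first and second place.

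The make-up of the survival and BH3-only members is given as a description with no test. BAX held 56.5% ± 1.16 of the effector sum without monensin and 56.8% ± 0.984 with it. MCL1 held 75.7% ± 0.413 of the summed length-scaled level of the 4 survival members without monensin and 70.3% ± 0.286 with it (mean ± SD, 3 libraries each). The share of BCL2L1 was 8.75% ± 0.614 and 12.3% ± 0.575, and that of BCL2A1 was 0.202% ± 0.0992 and 3.03% ± 0.320. BCL2 held 15.3% ± 0.170 and 14.3% ± 0.538. Among the 4 BH3-only members, the share of BBC3 was 5.56% ± 0.420 without and 14.3% ± 0.0683 with monensin, while that of BID was 48.0% ± 1.65 and 35.7% ± 1.69.

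**Figure D4:**
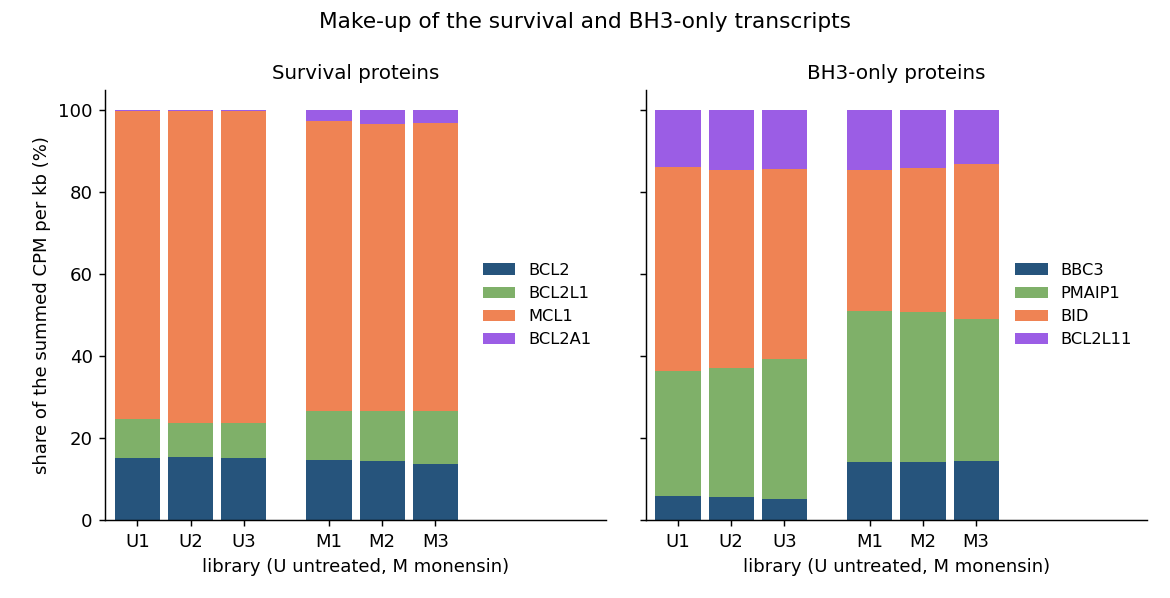
Share of each member in the summed CPM per kb of the survival members and of the BH3-only members, in percent. Bars are shown for each library (U untreated, M monensin). The BBC3 share is larger in each monensin library, and MCL1 holds most of the sum of the survival members in all 6.

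The summed level of the 4 survival members was 100.3 ± 4.15 CPM per kb in untreated and 79.1 ± 2.00 in monensin libraries. That of the 4 BH3-only members was 42.2 ± 0.953 and 46.4 ± 0.272 CPM per kb. These sums leave out family genes that are not members. Of those, BIK stood at 24.9 CPM per kb without and 22.3 with monensin, BAD at 16.2 and 19.1, and BCL2L2 at 8.60 and 11.7. The shares above and the ratio of sums therefore describe the members only. The ratio of the BH3-only sum to the survival sum was 0.437, 0.409 and 0.418 without monensin and 0.581, 0.578 and 0.603 with it. Every monensin library was above every untreated one. BAX over BCL2, a ratio often used to describe the balance of the family, was 2.62 ± 0.310 without and 4.0 ± 0.523 with monensin on the length-scaled levels. Both ratios were taken without the GC and length adjustment. That adjustment moved BAX from a log2 fold change of 0.17 to -0.13 and BCL2 from -0.44 to -0.35, bringing them closer together. These ratios compare transcripts, not proteins, and MCL1 and NOXA are known to turn over quickly as proteins.

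Promoter windows of 250 bases before a RefSeq start (GRCh38.p14) were at hand for 9 of the 10 members. Sequence is shown for BCL2A1, BBC3 and PMAIP1, the 3 members with the highest log2 fold changes. In these lines capitals mark matches to the letter patterns for ATF4, AP-1, NF-kB and the CRE half-site described after them. The BCL2A1 stretch lies at chr15:79971240-79971269 and the BBC3 stretch at chr19:47232762-47232791, both on the minus strand, and the PMAIP1 stretch at chr18:59899746-59899947 on the plus strand.
BCL2A1: tattataaagTGATGCAAAcagaaattcca
BBC3: gcactggaaggTGAGTCActctggtgaggc
PMAIP1: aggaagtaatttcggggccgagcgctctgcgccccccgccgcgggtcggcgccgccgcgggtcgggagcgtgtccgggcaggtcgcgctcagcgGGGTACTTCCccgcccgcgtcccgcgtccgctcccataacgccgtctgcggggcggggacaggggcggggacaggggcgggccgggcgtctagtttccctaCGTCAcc

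The BCL2A1 window holds TGATGCAAA, a match to TGATGNAAN, the composite element that ATF4 and C/EBP proteins share. It sits 63 to 55 bases before the start, just after TATAAA, which 10.7% of windows hold, and 3.13% of the 35116 promoter windows of this length have a match on either strand. The BBC3 window holds TGAGTCA, a match to the AP-1 motif TGANTCA on both strands, which 6.57% of windows have. In PMAIP1, GGGTACTTCC matches the NF-kB motif, found in 5.67% of windows. CGTCA in the same stretch is the reverse complement of the CRE half-site TGACG, so the match lies on the other strand; the half-site was found in 21.2% of windows. In GENCODE 29 models of the same genes, all 250 bases of the BCL2A1 window, the printed stretch included, and 99 of the 250 of BBC3 lie inside exons. More motifs were searched than are described here, over 14 windows of raised, lowered and uncalled members. The CRE half-site also matched in BCL2, which was lowered, and in BAX and BCL2L1. Among other matches were a p53 half-site in BAK1 and the PU.1 core GAGGAA in BCL2A1. A match describes letters and is not a binding site.

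Messages of transcription factors that can act on these genes, and of proteins that regulate such factors, moved as follows. ATF4, the integrated stress response factor, rose from a mean of 238 ± 5.99 CPM (SD, n = 3) to 806 ± 34.2 CPM, and DDIT3, which encodes CHOP, an activator of BBC3 and BCL2L11 in other settings, rose from 12.2 ± 0.448 to 149 ± 8.28 CPM. ATF3 rose from 0.670 ± 0.156 to 3.21 ± 0.260 CPM. Of 16 regulators, 9 were raised and 4 lowered, beside 34.1% and 33.7% of all tested genes, and their median log2 fold change was 0.29, against 0.02 over all tested genes. No list here was tested against other genes. NFKB1 and E2F1 were among those lowered, at -0.30 (SE 0.05) and -0.89 (SE 0.05), and FOXO3 rose by 0.24 (SE 0.07), a call that leaving out monensin library 1 ended (edgeR adjusted p = 0.0534, range over settings 0.000948 to 0.0534). STAT5A rose by 0.97 (SE 0.06), and TP73 fell from 33.6 ± 0.632 to 19.1 ± 2.08 CPM. MDM2 fell by 0.30 (SE 0.05), a call lost after the GC and length adjustment (edgeR adjusted p = 0.0630, smallest over settings 1.77e-08). JUN, an AP-1 subunit named after its values were seen, rose from 12.1 ± 0.916 to 19.0 ± 0.874 CPM.

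Among 13 other BCL2 family genes, 10 were tested. Of these, 5 were raised and 3 lowered (34.1% and 33.7% of all tested genes), with a median log2 fold change of 0.19, and 3 were raised after the GC and length adjustment. BNIP3L, a mitophagy receptor, rose from 26.9 ± 1.37 to 70.3 ± 5.83 CPM, and its relative BNIP3 fell from 62.6 ± 3.54 to 46.8 ± 1.04 CPM. BCL2L2, a survival gene that encodes BCL-w, rose by 0.44 (SE 0.05), and its count is uncertain because the read-through gene BCL2L2-PABPN1 shares its exons. BCL2L12 fell by 0.52 (SE 0.06) and BIK, a BH3-only gene, by 0.16 (SE 0.07, edgeR adjusted p = 0.0424), a call lost in 9 of 14 settings. Leaving out untreated library 1 or 2 or monensin library 1 or 2 ended the BIK call, and its adjusted p ran from 5.87e-07 to 0.309. BMF, a BH3-only gene below the level set for naming and chosen after its values were seen, rose from 1.37 ± 0.363 to 4.79 ± 0.613 CPM. BCL2L10, BCL2L14 and HRK did not pass the filter.

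Next came the genes that act after the mitochondrial pore. Of 11 genes of the apoptosome, caspases and nucleases, 7 were lowered and 2 raised, beside 33.7% and 34.1% of all tested genes, with a median log2 fold change of -0.43 (1 raised after the GC and length adjustment). APAF1, the scaffold of the apoptosome, fell from 96.6 ± 5.37 to 63.5 ± 6.55 CPM and CYCS, cytochrome c, from 320 ± 5.85 to 216 ± 7.73 CPM, with CYCS uncertain because it has many pseudogene copies. The initiator CASP9 rose by 0.41 (SE 0.10), a call that the GC and length adjustment ended (edgeR adjusted p = 0.0533, smallest over settings 0.000143). CASP2 fell by 0.85 (SE 0.05).

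Of 8 caspase inhibitors and their antagonists, 4 were lowered and 2 raised, beside 33.7% and 34.1% of all tested genes, with a median log2 fold change of -0.13. DIABLO, a symbol with more than 1 row, was not called, and the row used held only 28 to 39 counts per library. BIRC3, an NF-kB target that encodes cIAP2, rose from 0.893 ± 0.184 to 3.38 ± 0.568 CPM and BIRC2 rose by 0.25 (SE 0.05). BIRC6 and NAIP fell by 0.76 (SE 0.07) and 0.83 (SE 0.16), and BIRC5 by 0.36 (SE 0.04). XIAP had a log2 fold change of -0.15 (SE 0.05, edgeR adjusted p = 0.0161), and of 0.04 after the GC and length adjustment. Its call was also lost with total counts (adjusted p = 0.280) and when monensin library 3 was left out (adjusted p = 0.0568), in a range for XIAP of 0.00663 to 0.467.

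In the death receptor pathway, which feeds into BID, 5 of 11 tested genes were raised and 3 lowered, beside 34.1% and 33.7% of all tested genes, with a median log2 fold change of -0.04, but the GC and length adjustment left 3 raised and 6 lowered. TNFRSF10B, the TRAIL receptor DR5 and a target of CHOP, rose from 42.8 ± 1.75 to 69.8 ± 3.40 CPM, while the other TRAIL receptor TNFRSF10A fell by 0.54 (SE 0.07). The ligand TNFSF10 fell by 1.39 (SE 0.09). FAS was scarce, at 1.79 ± 0.237 CPM without and 0.840 ± 0.121 CPM with monensin, and fell by 1.08 (SE 0.22). CFLAR, which blocks caspase-8, rose by 0.61 (SE 0.05) and CASP10 by 0.62 (SE 0.08).

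Of 11 membrane partners, 6 were lowered and 2 raised, beside 33.7% and 34.1% of all tested genes, with a median log2 fold change of -0.30. The channel genes VDAC1 and VDAC3 fell by 0.40 (SE 0.04) and 0.64 (SE 0.04), DNM1L, the fission enzyme, by 0.50 (SE 0.04) and ITPR3, a calcium channel of the endoplasmic reticulum, by 0.87 (SE 0.06). TMBIM6, known as BAX inhibitor 1, rose by 0.26 (SE 0.04), and ITPR2 rose by 0.34 (SE 0.11), a call lost when untreated library 1 was left out (edgeR adjusted p = 0.0637, smallest over settings 4.56e-05). Of 18 genes for turnover and sequestration of family proteins, 13 were lowered and PIM1 and PIM3 were raised, beside 33.7% and 34.1% of all tested genes, with a median log2 fold change of -0.22. PIM3 turned to a log2 fold change of -0.20 after the GC and length adjustment. Its call was lost when untreated library 2, untreated library 3 or monensin library 2 was left out, at adjusted p-values of 0.0692, 0.0669 and 0.0882, with 0.000652 the smallest over settings for PIM3. Proteins of the YWHA genes hold BAD in the cytosol, and those named by the rule fell, YWHAQ at -0.85 (SE 0.04), YWHAH at -0.67 (SE 0.04) and YWHAG at -0.66 (SE 0.04).

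**Figure D5:**
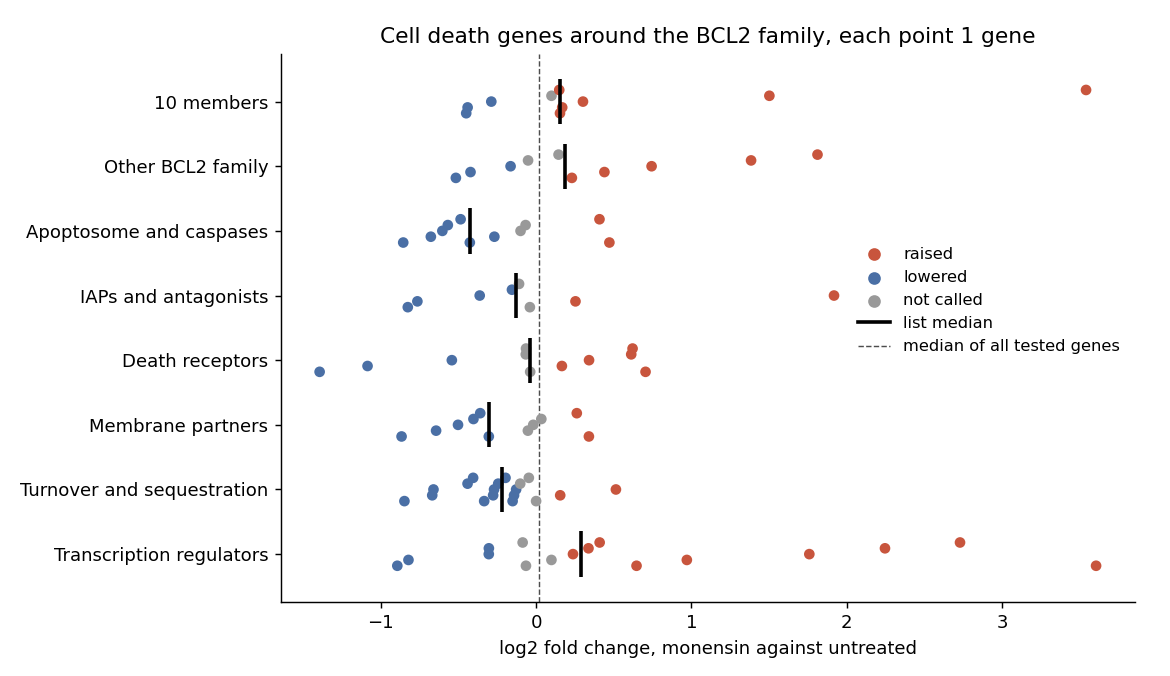
Log2 fold changes, monensin against untreated, of the tested genes in each list around the BCL2 family (points coloured by call, bar at the list median, dashed line at the median of all tested genes). The apoptosome list and the membrane partners have medians of -0.43 and -0.30, and DDIT3 at 3.61 is the rightmost point.

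The genes whose log2 CPM profile lay nearest to that of BCL2A1 over the 6 libraries, among 11564 candidates, were CST7, QRICH2 and BHLHE40, at root mean square distances of 0.203, 0.267 and 0.285 on the log2 scale. For MCL1 the nearest of 11563 candidates were SMARCA2 at 0.0120, ZDHHC13 at 0.0185 and LRPPRC at 0.0193. With 2 groups, any gene with a like difference between them lies near by this measure.

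The labelled cell type was checked against its markers. All 10 monocytic markers were tested, with a summed level between 2009 and 2097 CPM in untreated and between 1921 and 2009 CPM in monensin libraries; LYZ and CD33 fell and CEBPA and TYROBP rose. Of 10 markers of other cell types, 5 had no count in any library, and without PECAM1, which monocytes also express, the others summed to between 1.84 and 2.65 CPM in untreated and between 3.34 and 4.0 CPM in monensin libraries. Their part in the results was not tested.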

How the data were processed

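RNA of 6 THP-1 libraries, 3 untreated and 3 with monensin, was measured by directional single-read sequencing, per the labels' protocols. The authors deposited raw counts per Ensembl gene. The submitters' processing notes name HTSeq 0.11.1, HISAT2 2.1.0, Trimmomatic 038, bcl2fastq and DESeq2 1.22.2, and GRCh38. Strand setting and annotation release are not given in the sources used here. Left out were the 5 tally lines, between 19.1% and 22.0% of tallied alignments. Their share was 19.1% to 19.8% in untreated and 21.2% to 22.0% in monensin libraries, so the groups did not overlap. The authors also deposited a table of log2 fold changes for 2410 genes.

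Groups follow the treatment label. Counts were tested with edgeR 4.0.16 (R 4.3.3) by the quasi-likelihood test over all 16542 genes that passed filterByExpr, with TMM scaling, treatment as the only term and Benjamini-Hochberg adjustment. The method was tested on simulated data. CPM uses TMM-adjusted library sizes. Positions, exon lengths and GC content came from GENCODE 29, promoters and motif counts from RefSeq windows. All 133 list genes were matched, MARCHF5 and DIABLO (a symbol with more than 1 row) by gene ID. Standard errors were derived from the coefficient and its F value. No pair of libraries was identical.

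The members and lists were chosen with earlier results of these data known. Named genes are the members, up to 4 of a list's genes with the largest change, given a mean log2 CPM of 2 or more, genes against their list's majority where 5 or fewer, 9 fixed anchors and the 3 nearest profiles of 2 members. Alternatives were DESeq2 1.42.0, RLE factors, total counts, leaving genes unfiltered, a filter of 50 counts and 1 CPM in 3 libraries, a replicate block, an adjusted p under 0.01, each library left out, and removal of GC content and length trends with mgcv 1.9.3. Results for some genes of the lists are not reported here.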

Additional observations from a re-analysis of the deposited data

How the results depend on the processing

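BCL2, MCL1, BCL2A1, BBC3, PMAIP1 and BID kept their direction and their call in all 14 settings. At an adjusted p under 0.01, 3 members were raised, and BCL2L1 (0.15), BAX (0.17) and BAK1 (0.15) lost their calls, as did 1 raised gene each of the membrane partners (1 left) and of turnover and sequestration (1 left). With no filter, BCL2L1 (0.13) and BAK1 (0.13) lost their calls, and with DESeq2 BCL2L1 (0.14) did. BCL2L11 was called under total counts (0.19). With GC content and length trends removed, 5 members were lowered, BCL2L1 (-0.11), BAX (-0.13), BAK1 (-0.16), PIM3 (-0.20) and XIAP (0.039) changed sign, and BCL2L11 (0.13) was called; raised genes came to 3 in the other family list, 1 in the apoptosome list, 3 in the death receptor list (6 lowered) and 1 in turnover and sequestration. The cause was not tested. Adding the counts of the overlapping antisense gene, chosen after seeing the data as was the wider use of the GC and length setting, changed no call. ABALON had 0 to 6 counts per library, too few to move BCL2L1. The addition also cannot bring back reads left out as ambiguous, so it does not settle the strand setting. Leaving out 1 library at a time gave between 3 and 6 raised members, 1 to 2 raised membrane partners and 1 to 2 raised turnover genes, with log2 fold changes of 0.11 to 0.17 for BCL2L1, 0.11 to 0.22 for BAX, 0.12 to 0.17 for BAK1 and 0.066 to 0.14 for BCL2L11. With the replicate number as a block, 5515 genes were raised and 5435 lowered, and 6 and 3 of the members. Same-numbered libraries correlated at -0.119, 0.140 and 0.0414 in their deviations from group means, so the numbers were not taken to pair the samples. Total counts shifted the median log2 fold change of all genes by 0.09, and the GC and length adjustment by -0.09. Depth limits BCL2A1, whose untreated libraries held 16 counts in all.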
